A study of Homo sapiens with 4 samples.

Results

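Expression of 10 genes of the E2F and retinoblastoma family was followed in SW480, an established line from a human colorectal adenocarcinoma that the labels call intestinal epithelial. The genes were chosen by symbol from the 19192 genes of the count table, and all 10 were found. They are the activator E2F genes E2F1, E2F2 and E2F3, the repressor E2F gene E2F4, the atypical E2F genes E2F7 and E2F8, the dimerisation partner gene TFDP1, and the pocket protein genes RB1, RBL1 and RBL2. Total RNA and ribosome-protected fragments (RPF, the mRNA pieces that a ribosome shields from nuclease) were sequenced from wild-type cells and from cells with the genotype label IMP1-/-, which names the RNA-binding protein encoded by IGF2BP1. Each of the 4 groups had 1 library made from 3 pooled culture plates, no agent or time course is named in the labels, and both genotypes share the SW480 background. For wild-type RNA the label for the line is SW840 in one field and SW480 in another, and it was treated as SW480. With 1 library per group no difference below has a replicate check, all intervals are 95% and cover counting error only, and genotype cannot be told apart from clone or culture. In these bulk libraries fewer cells in a cell cycle phase and less RNA per cell cannot be told apart.

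E2F factors bind DNA as dimers with a DP protein and switch on the genes that a cell needs to leave G1 and copy its DNA. The pocket proteins RB (from RB1), p107 (from RBL1) and p130 (from RBL2) bind E2F factors and silence those genes until cyclin-dependent kinases phosphorylate them. RB mainly holds the activators E2F1 to E2F3, whereas p107 and p130 pair with E2F4 and assemble with the MuvB proteins into the DREAM complex, which silences cell cycle genes in resting cells. E2F7 and E2F8 bind DNA without a DP partner and repress E2F targets late in S phase. Several members are themselves E2F targets, so the family regulates its own transcription.

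Promoter sequence bears on this loop, and the stretches that hold E2F-type letters are printed for that reason. RefSeq windows on GRCh38.p14, from 250 bases before to 50 bases after a gene's start, lay within 500 bases of the start of the counted transcript for 8 of the 10 members. The E2F consensus was searched as TTTCCCGC, TTTCGCGC, TTTGCCGC and TTTGGCGC on both strands. It was found in 5 of the 8 windows, those of E2F1, E2F2, E2F3, TFDP1 and RBL1, and not in those of E2F4, E2F7 and RBL2. The same letters were in 3.31% of all 35116 windows of this length and in 5.77% of 7579 windows of genes measured here in RNA. E2F1 and RBL1 each carried a pair of matches close before the RefSeq start. The counted E2F1 transcript starts further upstream, at 33686404, within the second match (33686398 to 33686405). For E2F3 the counted transcript starts downstream of the RefSeq start, at 20402167, and the match lies at 20401826 to 20401833, so it is not close to the counted start. In the stretches of 60 bases below, written 5′ to 3′ on the strand of the gene, capitals mark the matches, which are letters in a window and not measured binding sites.
E2F1, chr20:33686396-33686455, minus strand: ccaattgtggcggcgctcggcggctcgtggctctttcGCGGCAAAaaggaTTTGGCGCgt
RBL1, chr20:37095998-37096057, minus strand: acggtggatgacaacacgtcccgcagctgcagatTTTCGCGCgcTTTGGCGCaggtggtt
E2F2, chr1:23531254-23531313, minus strand: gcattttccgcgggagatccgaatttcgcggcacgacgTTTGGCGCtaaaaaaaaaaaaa
E2F3, chr6:20401789-20401848, plus strand: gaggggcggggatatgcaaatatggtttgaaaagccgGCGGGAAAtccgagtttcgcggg
TFDP1, chr13:113584613-113584672, plus strand: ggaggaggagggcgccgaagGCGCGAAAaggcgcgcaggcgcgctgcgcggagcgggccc

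Library totals ranged from 3778316 to 5551479 counts, and a count of 0 allowed up to 3 counts, or 0.540 to 0.794 CPM (reads per 1000000 counts of the library). IGF2BP1 had 598 and 571 RNA reads and 285 and 149 RPF reads, wild type first. Its RNA change of 0.08 (−0.08 to 0.25, on the log2 scale used below) did not differ detectably from 0, its RPF change of −0.93 (−1.23 to −0.65) was called lower, and its RPF change less its RNA change was −1.02 (−1.35 to −0.69). Since reads of the gene were present in both kinds, the second genotype is called knockout-labelled throughout. Of 10 intestinal epithelial markers, the keratin genes KRT8, KRT18 and KRT19 and the adhesion gene EPCAM were abundant, KRT20 was at 0 in all 4 libraries, CDX1 and CDH17 had at most 3 reads in each, villin VIL1 went from 160 to 2 RNA reads, and the cadherin gene CDH1 went from 83 to 286 RNA reads and from 88 to 275 RPF reads. The summed level of this list was 8327 and 5674 CPM in RNA and 25381 and 20318 CPM in RPF. Fibroblast, leukocyte and endothelial lists summed to between 0.529 and 12.4 CPM in each library, with PTPRC, CD3E and DCN among the markers at 0 in all 4. Others of these lists had reads, wild type first: in RNA PECAM1 34 and 34, CDH5 18 and 4, COL1A1 10 and 26, and CSF1R 1 and 16. CDH5 had 0 and 30 RPF reads and VWF 0 and 13. The endothelial sum was 10.4 and 9.12 CPM in RNA and 1.06 and 12.4 CPM in RPF.

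**Figure D1:**
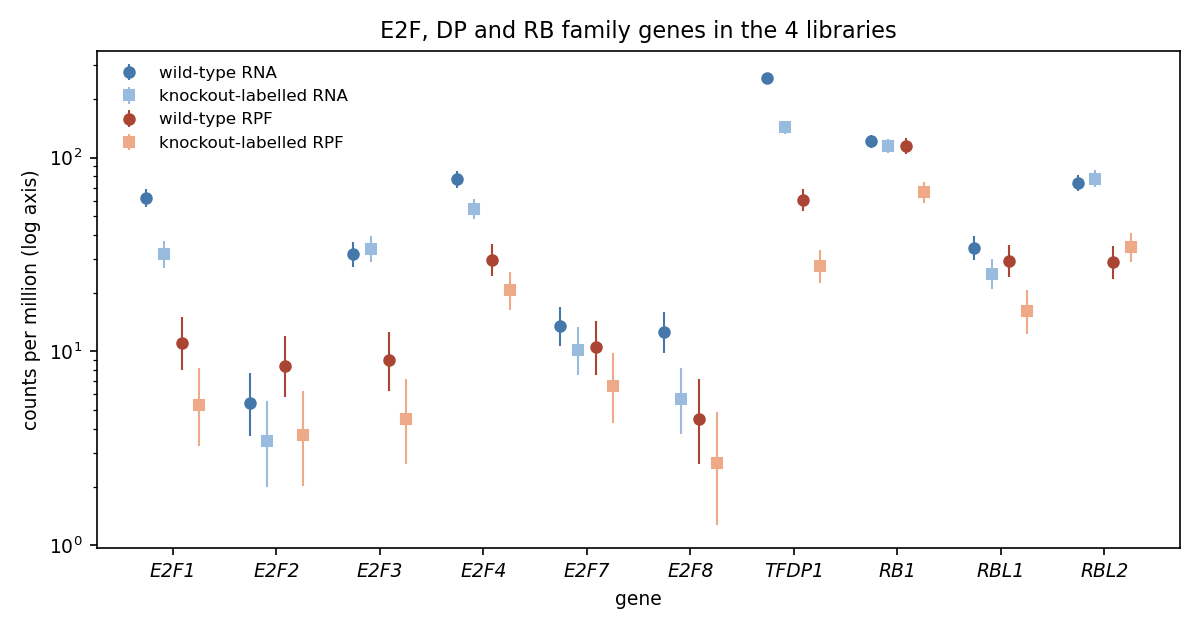
CPM (log axis) of the 10 members in each of the 4 libraries, with exact Poisson 95% intervals of counting error. TFDP1 RNA stands highest at 258 CPM in the wild type, every member but RBL2 has a lower RPF value in the knockout-labelled library, and RBL2 has 28.8 and 34.4 CPM in RPF.

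Changes are given as log2 of knockout-labelled over wild type, after scaling by the trimmed mean of M values and with a prior count of 0.5. Genes with 50 or more reads summed over the RNA (or RPF) libraries count as measured, and a gene was called lower or higher when the ratio reached 1.5-fold and the interval excluded no change. In RNA, E2F1, E2F8 and TFDP1 were called lower, and 0 members higher, of 9 measured. Over all 10875 genes measured in RNA the same rule called 17.8% lower and 16.2% higher. In RPF, E2F1, E2F3, TFDP1, RB1 and RBL1 were called lower, and 0 members higher, of 8 measured, beside 20.1% lower and 19.0% higher among 9794 genes. The median change of the measured members was −0.46 in RNA and −0.83 in RPF, where the medians of all measured genes were −0.01 and −0.00065. E2F2 fell short of the read minimum in both kinds and E2F8 in RPF.

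Among the activators, E2F1, the E2F most studied as a driver of S phase entry, was lower in both kinds of library. E2F1 (ENST00000343380, chromosome 20, 33675683 to 33686404, minus strand, 7 exons) had 344 RNA reads in the wild type against 156 in the knockout-labelled cells, and 42 against 20 RPF reads. Its RNA change was −0.99 (−1.27 to −0.71) and its RPF change −1.05 (−1.92 to −0.27). The RPF change less the RNA change was −0.07 (−0.87 to 0.74), so a difference between them was not detectable at this depth. The wider RPF interval rests on fewer reads.

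E2F3, an activator that like E2F1 is held by RB, was called lower in footprints and not in RNA. E2F3 (ENST00000346618, chromosome 6, 20402167 to 20493715, plus strand, 7 exons) had 176 and 167 RNA reads, a change of 0.08 (−0.24 to 0.39), and 34 and 17 RPF reads, a change of −0.98 (−1.93 to −0.12). The footprint call stood just above the read minimum, with 51 reads in all. The annotation lists the processed pseudogenes E2F3P1 and E2F3P2, and how reads shared with them were counted is not given in the sources used here. E2F2 (ENST00000361729, chromosome 1, 23506430 to 23531220, minus strand, 7 exons), the activator with the fewest RNA reads, had 30 and 17 in RNA and 32 and 14 in RPF. Its changes were −0.65 (−1.62 to 0.24) in RNA and −1.16 (−2.21 to −0.25) in RPF, and neither was called at this depth.

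E2F4, the repressor E2F that carries p107 and p130 to DNA, was lower in both kinds by less than 1.5-fold. E2F4 (ENST00000379378, chromosome 16, 67192169 to 67198918, plus strand, 10 exons) had 428 and 268 RNA reads and 112 and 78 RPF reads. Its changes of −0.52 (−0.75 to −0.30) in RNA and −0.52 (−0.96 to −0.09) in RPF excluded no change. The ratio of E2F1 to E2F4 reads, which does not depend on library scaling, went from 0.804 to 0.583 in RNA, a log2 change of −0.46 (−0.81 to −0.11). In RPF it went from 0.378 to 0.261, and that change of −0.53 (−1.40 to 0.33) included no change. A processed pseudogene, E2F4P1, is annotated for E2F4 as well.

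The atypical repressors were sparse. E2F8 (ENST00000250024, chromosome 11, 19224535 to 19240951, minus strand, 13 exons) had 70 and 28 RNA reads, a change of −1.16 (−1.86 to −0.52) and the lowest RNA value of the measured members. Its 17 and 10 RPF reads gave −0.74 (−2.05 to 0.44). E2F7 (ENST00000322886, chromosome 12, 77021247 to 77065580, minus strand, 13 exons) had 75 and 50 RNA reads and 40 and 25 RPF reads. Its changes of −0.43 (−0.98 to 0.10) and −0.67 (−1.46 to 0.08) both included no change, so a difference in E2F7 was not detectable at this depth.

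TFDP1, which encodes DP1, the partner that E2F1 to E2F4 need for tight DNA binding, was lower in both kinds with the narrowest intervals of the called members in RNA. TFDP1 (ENST00000375370, chromosome 13, 113584741 to 113641470, plus strand, 12 exons) had 1432 and 706 RNA reads and 228 and 104 RPF reads. Its changes were −0.87 (−1.0 to −0.74) in RNA and −1.13 (−1.48 to −0.79) in RPF, or 1.83-fold and 2.19-fold lower.

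**Figure D2:**
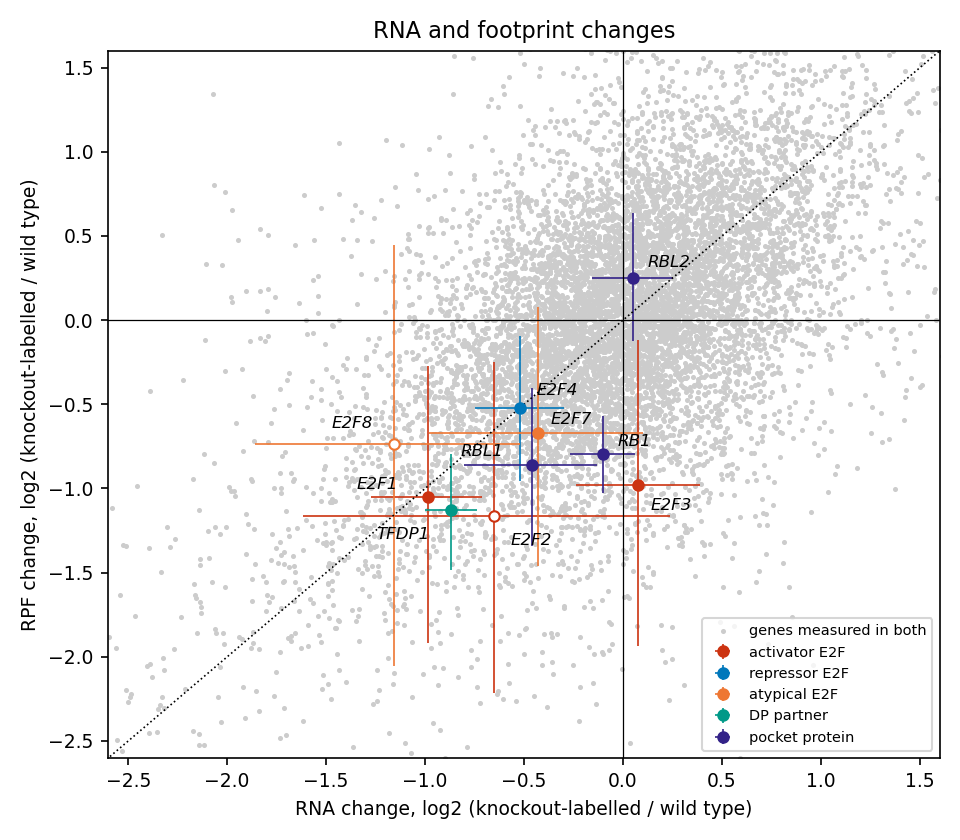
RNA change (x axis) against RPF change (y axis), both log2 of knockout-labelled over wild type, for the 10 members with 95% counting intervals, over 9598 genes measured in both kinds in grey, 395 of which lie outside the axes. Open circles are E2F2 and E2F8, which missed the read minimum in at least 1 kind; E2F3 and RB1 sit near 0 on the RNA axis and at −0.98 and −0.80 on the RPF axis, below the dotted line of equal change.

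The pocket protein genes differed from each other. RB1, the retinoblastoma tumour suppressor gene, did not differ detectably in RNA and had fewer footprints. RB1 (ENST00000267163, chromosome 13, 48303726 to 48481890, plus strand, 27 exons) had 673 and 564 RNA reads, a change of −0.10 (−0.27 to 0.06), and 436 and 251 RPF reads, a change of −0.80 (−1.03 to −0.57), or 1.74-fold lower. RBL1 (ENST00000373664, chromosome 20, 36996349 to 37095995, minus strand, 22 exons), whose product p107 is made mainly in cycling cells, had 190 and 124 RNA reads and 111 and 61 RPF reads. Its RNA change of −0.46 (−0.80 to −0.13) was under 1.5-fold and its RPF change of −0.86 (−1.34 to −0.40) was called lower.

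RBL2, whose product p130 is the main pocket protein of resting cells, was the 1 member whose RPF value was above that of the wild type, though its interval included no change. RBL2 (ENST00000262133, chromosome 16, 53434420 to 53491649, plus strand, 22 exons) had 411 and 383 RNA reads, a change of 0.05 (−0.16 to 0.25), and 109 and 130 RPF reads, a change of 0.25 (−0.12 to 0.63).

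The balance within the pocket protein genes was compared inside each library, where scaling plays no part. RBL1 reads per RBL2 read went from 0.463 to 0.325 in RNA (log2 change −0.51, −0.89 to −0.13) and from 1.02 to 0.471 in RPF (−1.11, −1.69 to −0.53). RB1 reads per RBL2 read went from 3.99 to 1.93 in RPF (−1.05, −1.48 to −0.62), and from 1.64 to 1.47 in RNA, where the change of −0.15 (−0.41 to 0.10) included none. Of all footprints on the 3 genes, RBL2 held 16.6% (exact binomial interval 13.8 to 19.7) in the wild type and 29.4% (25.2 to 33.9) in the knockout-labelled library. RB1 held 66.5% (62.7 to 70.1) and 56.8% (52.0 to 61.5), and RBL1 16.9% (14.1 to 20) and 13.8% (10.7 to 17.4). The RBL2 and RB1 intervals did not overlap between the genotypes in RPF, and in RNA the shares of all 3 genes had overlapping intervals. RBL2 itself had 109 and 130 RPF reads, while the RPF reads of the 3 genes together went from 656 to 442. How often shares separate in this way in other groups of genes was not tested.

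Among the 6 E2F genes the RNA share of E2F1 was lower and that of E2F3 higher in the knockout-labelled library. E2F3 itself had 176 and 167 RNA reads, while the reads of the 6 genes together went from 1123 to 686. E2F1 made up 30.6% (27.9 to 33.4) of their RNA reads in the wild type and 22.7% (19.7 to 26.1) in the knockout-labelled library, and E2F3 15.7% (13.6 to 17.9) and 24.3% (21.2 to 27.7). The activators together held 49.0% and 49.6%. In footprints E2F4 was the largest part in both genotypes, with 40.4% (34.6 to 46.5) and 47.6% (39.7 to 55.5), and the intervals of every E2F gene overlapped between genotypes.

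**Figure D3:**
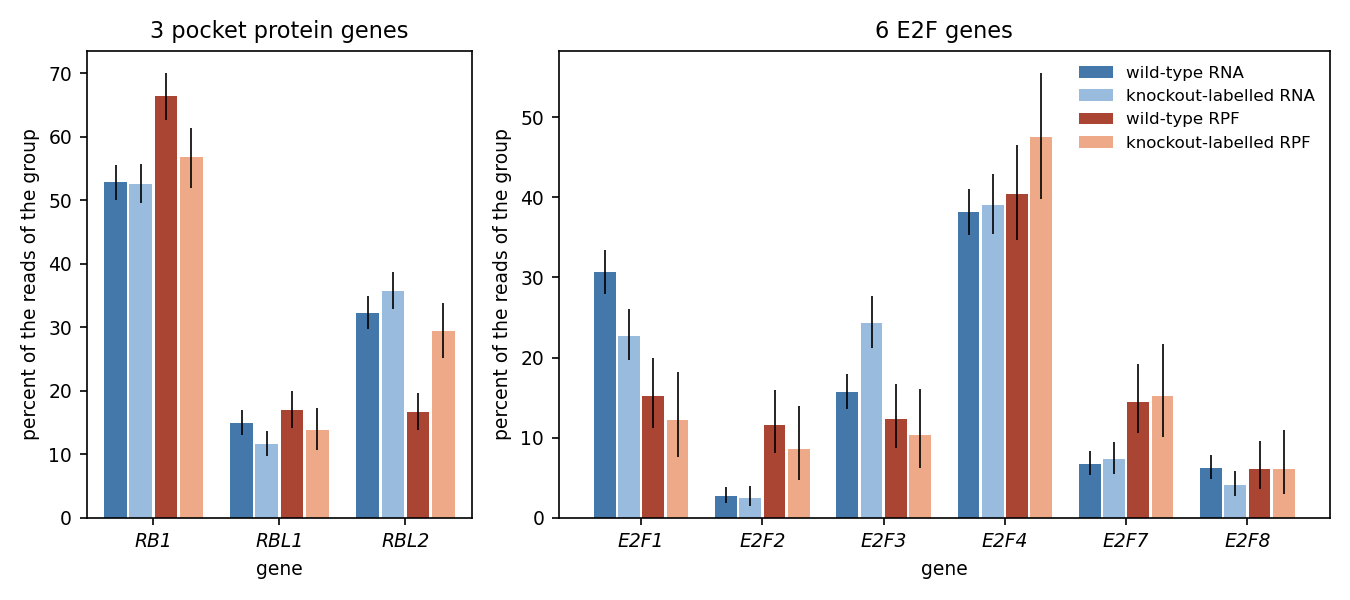
Share of reads, in percent of the reads of the group, held by each of 3 pocket protein genes (left) and 6 E2F genes (right) in each library, with exact binomial 95% intervals. RBL2 goes from 16.6% (109 of 656 reads) to 29.4% (130 of 442 reads) of pocket protein footprints, wild type first. E2F1 goes from 30.6% to 22.7% of E2F RNA reads.

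Levels of different members were set against each other per kilobase of transcript on the CPM scale. In wild-type RNA the order was TFDP1 at 97.4, E2F4 at 36.8, RB1 at 25.3, E2F1 at 24.8, RBL2 at 15.1, E2F3 at 6.68, RBL1 at 6.02, E2F8 at 3.89, E2F7 at 2.35 and E2F2 at 1.04. RB1 and E2F1 had overlapping intervals, as did E2F3 and RBL1, and the other neighbours in this order were clear of each other. The region counted is not given in the sources used here. Per kilobase of coding length the order turned in its middle and at its low end. E2F1 at 47.2 and RB1 at 43.5 overlapped, as did E2F3 at 22.7 and RBL2 at 21.6, and E2F3 was clear of RBL1 at 10.7. E2F7 at 4.94, E2F8 at 4.84 and E2F2 at 4.11 overlapped as well, so their separation above rests on transcript length. In knockout-labelled RNA TFDP1 was still first at 54.1, and E2F1 at 12.6 stood after RBL2 at 15.8, with overlapping intervals. Footprints were taken per kilobase of coding length. In the wild type TFDP1 at 48.9 and RB1 at 41.4 led with overlapping intervals, and E2F4 at 23.8 was clear of both and of RBL1 at 9.15. In the knockout-labelled library RB1 at 23.8, TFDP1 at 22.3 and E2F4 at 16.6 led, each overlapping its neighbour, and RBL2 at 10.1 was clear of RBL1 at 5.03.

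Of 8 measured members 5 had few footprints for their RNA in the wild type, between percentiles 1.65 and 9.72 of all genes, and 3 were nearer the middle. Footprints per RNA, the log2 ratio of RPF to RNA CPM, was −2.47 (−2.93 to −2.01) for E2F1, at percentile 1.65 of 9598 genes measured in both kinds. TFDP1 was at −2.09 and percentile 3.02, E2F3 at −1.80 and percentile 4.99, E2F4 at −1.38 and percentile 9.51, and RBL2 at −1.36 and percentile 9.72. RB1 at −0.07, RBL1 at −0.22 and E2F7 at −0.35 lay between percentiles 33.5 and 42.9. E2F1, TFDP1 and E2F3 were below percentile 3 in the knockout-labelled libraries, at 2.16, 2.81 and 1.33. Across genes this ratio was lower where more of the transcript lies outside the coding region (Pearson's r of −0.30 over 9589 genes, which are not independent replicates), and the part of the order that this sets was not tested.

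**Figure D4:**
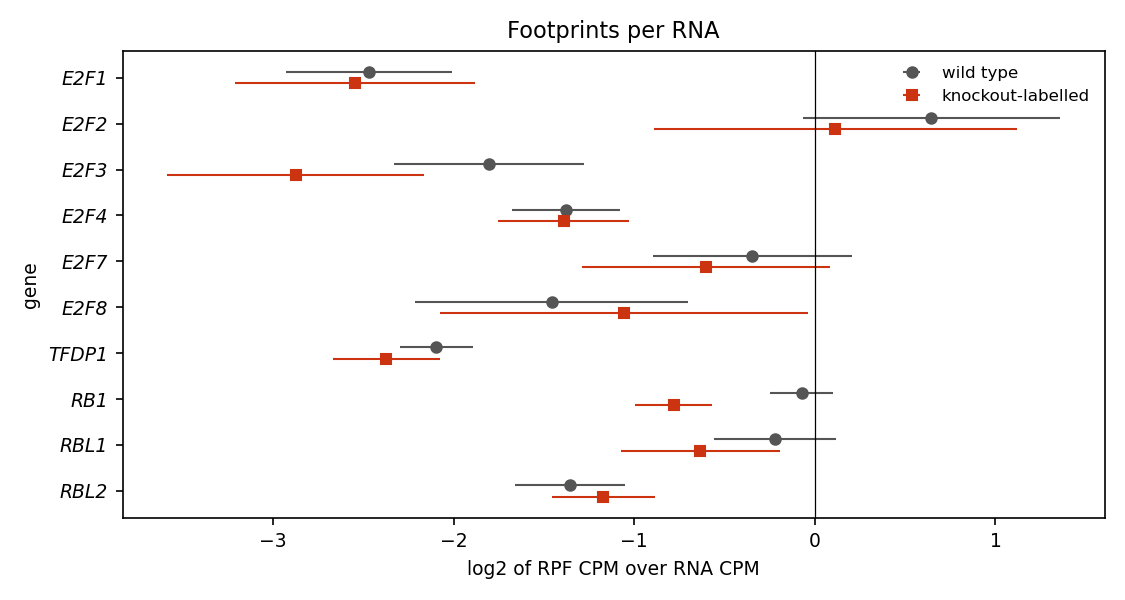
Log2 of RPF CPM over RNA CPM for each member in the wild type (circles) and the knockout-labelled libraries (squares), with 95% intervals from reciprocal counts. RB1 moves from −0.07 to −0.78 with separate intervals, while E2F1 stays at −2.47 and −2.55.

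Translational efficiency (TE) is taken here as footprints relative to RNA, so its change is the RPF change less the RNA change. It was called lower for E2F3 and RB1 and higher for 0 of 8 measured members, beside 13.9% lower and 15.7% higher among 9598 genes. The TE change was −1.06 (−1.94 to −0.17) for E2F3 and −0.69 (−0.97 to −0.42) for RB1. RBL1 had −0.40 (−0.95 to 0.16), TFDP1 −0.26 (−0.62 to 0.10), E2F7 −0.24, E2F1 −0.07, E2F4 0.00 and RBL2 0.20, all with intervals that included no change. The median over the members was −0.25 and over all measured genes 0.03, and with 4 libraries the TE change has no residual degrees of freedom and is a value, not a test.

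Family genes outside the 10 went several ways. E2F5, a second repressor E2F, had 133 and 79 RNA reads (−0.60) and 52 and 27 RPF reads (−0.93) and was called lower in both, though not in RNA under scaling by library totals (−0.58). E2F6, which represses without pocket proteins, had 240 and 217 RNA reads (0.01) and 105 and 128 RPF reads (0.28). TFDP2, the other widely made DP gene, had 187 and 246 RNA reads (0.55), 114 and 99 RPF reads (−0.20) and a TE change of −0.75 that was called lower. TFDP3 had 21 and 6 RNA reads and was not measured.

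Of the 8 MuvB and DREAM partner genes, the mitotic transcription factor genes MYBL2 and FOXM1 were the lowest. MYBL2, which encodes B-MYB, had 617 and 244 RNA reads (−1.19) and 105 and 40 RPF reads (−1.38). FOXM1 had 917 and 373 RNA reads (−1.15) and 140 and 45 RPF reads (−1.63). The MuvB core was mixed. LIN54, its DNA-binding subunit, was lower in RNA at −0.97, RBBP4, a histone-binding subunit, was lower in RPF at −0.79, and LIN52, the subunit that contacts the pocket protein, was higher in RPF at 0.80 (68 and 119 reads). LIN37 had 19 and 41 RPF reads (1.09, called higher), LIN9 had changes of 0.32 and −0.34, and DYRK1A, the kinase that acts on LIN52, had 0.14 and 0.18. In all 3 of 7 measured were lower and 0 higher in RNA, where 17.8% of all genes were lower and 16.2% higher, and 3 of 8 were lower and 2 higher in RPF, where the shares were 20.1% and 19.0%.

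Genes that E2F factors switch on were lower alongside the family. Of 42 G1/S target genes 33 were lower and 1 higher in RNA, with a median of −1.0, and 33 lower and 1 higher in RPF, with a median of −1.07. Among all measured genes 17.8% were lower and 16.2% higher in RNA (median −0.01), and 20.1% and 19.0% in RPF (median −0.00065). The gene higher in RNA was CCNE1 (13 and 38 reads), which encodes the cyclin E that completes RB phosphorylation. CCNE1 was lower in RPF, with 43 and 19 reads. The DNA ligase gene LIG1 had 200 and 16 RNA reads (−3.45), and FBXO5, an inhibitor of the anaphase-promoting complex, had 170 and 139 RNA reads (−0.14) beside 157 and 32 RPF reads (−2.28). The E2F letters were in 54.5% of the 33 promoter windows matched for this list, and list and letters are not independent, since the genes were listed as E2F targets.

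Of 24 G2/M genes that the DREAM complex silences, 21 were lower and 0 higher in RNA (median −1.24). In RPF 20 were lower and 0 higher (median −1.19). Over all genes 17.8% were lower and 16.2% higher in RNA, and 20.1% and 19.0% in RPF. The mitotic kinase gene NEK2 had 298 and 69 RPF reads (−2.10), and the cyclin B gene CCNB1 2268 and 784 (−1.53). The promoters of this list held the E2F letters in 5.56% of 18 windows. The CHR element TTTGAA, the site through which DREAM binds mitotic genes, was in 61.1% of them and in 8.51% of the windows of measured genes. List and element are not independent, since the genes were listed as DREAM targets. The proliferation marker MKI67 had 1264 and 269 RNA reads. These lists moved with the members, and the part that proliferation has in the members' values was not tested.

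**Figure D5:**
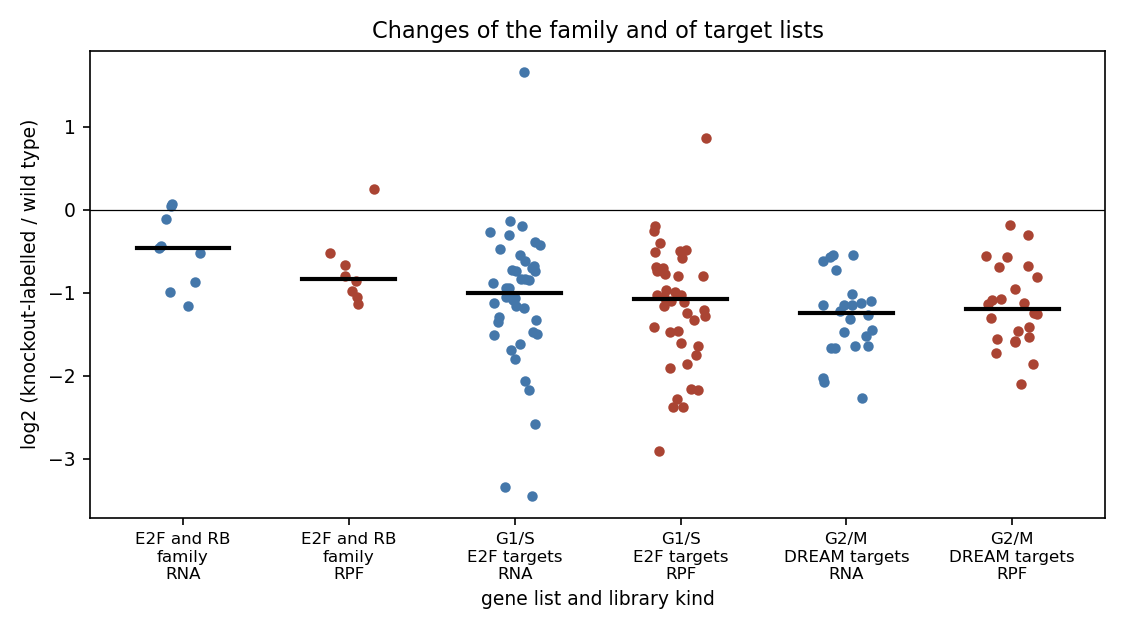
Log2 change of each measured gene (points) and the median (bar) for the E2F and RB family, 42 G1/S E2F targets and 24 G2/M DREAM targets, in RNA and in RPF. The medians are −0.46 and −0.83 for the family, −1.0 and −1.07 for the G1/S targets and −1.24 and −1.19 for the G2/M targets.

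Upstream of the pocket proteins, 2 of 6 cyclin D and CDK genes were lower and 0 higher in each kind. Over all measured genes 17.8% were lower and 16.2% higher in RNA, and 20.1% and 19.0% in RPF. The cyclin D1 gene CCND1 had 8061 and 2302 RNA reads (−1.66) and 4960 and 1757 RPF reads (−1.5), and CDK2 was lower in RNA (−0.75) and CCND3 in RPF (−0.65). In each kind 5 of the 6 values were below 0 and that of CDK6 was above. Its changes of 0.49 (0.20 to 0.78) in RNA and 0.41 (0.10 to 0.71) in RPF excluded no change but were under 1.5-fold. The CDK inhibitor gene CDKN1A, encoding p21, was higher in both at 1.06 and 0.86, and CDKN1C, encoding p57, was lower in both at −1.27 and −2.28. CDKN2D, encoding an inhibitor of CDK4 and CDK6, had 28 and 36 RNA reads (0.51) and 12 and 45 RPF reads (1.86), and was called higher in RPF and in TE (1.36). Of 6 CDK inhibitor genes measured in RNA 1 was lower and 1 higher, near the shares over all genes. In RPF 1 was lower and 2 higher of 5.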

How the data were processed

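Read counts per gene, as the authors deposited them, are whole numbers with no normalization, each for 1 Ensembl transcript. Per the submitters' processing notes cutadapt 1.10, Bowtie 1.1.2, HISAT2 2.1.0 and GRCh38 were used. What each tool did, which region was counted, and how shared reads and molecular identifiers were handled is not given in the sources used here. Groups came from the titles. Of the 19192 transcripts, 19176 were found in GENCODE release 29, from which coordinates and lengths were taken. Scaling used edgeR 4.0.16 in R 4.3.3, within each library kind, over all genes. The rest was done in Python 3.11.15 with SciPy 1.17.1. RNA and RPF intervals are exact conditional (Clopper-Pearson) intervals, and TE and ratio intervals come from reciprocal counts. Interval and call code was tested on simulated data. No p-value is given, as each group had 1 library.

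The members and lists were chosen with earlier results of these data known. Named genes are the 10 members, IGF2BP1, all genes of the small E2F, DP and DREAM lists, and up to 4 called genes of each other list per quantity, ranked by the interval bound nearest to no change; not every gene so named is printed, and some items are not reported here. CCNE1 in single directions, CDK6, the read shares, the ratio of RB1 to RBL2 and the promoter letters were chosen after values were seen. Promoter windows are from RefSeq on GRCh38.p14. Alternatives were scaling by library totals or by the median of ratios, leaving out MTRNR2L and mitochondrially encoded genes, a prior count of 2, minimums of 20, 200 or no reads, a 2-fold threshold, and coding length.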

Additional observations from a re-analysis of the deposited data

How the results depend on the processing

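The members called in RNA, RPF and TE were the same genes under library totals, the median of ratios, the omission of MTRNR2L and mitochondrially encoded genes, and a prior count of 2. A minimum of 20 reads or none added E2F2 to the members lower in RPF, making 6. A minimum of 200 reads left 2 members lower in RNA (E2F1 and TFDP1, without E2F8), 2 in RPF (TFDP1 and RB1) and 1 in TE (RB1), since fewer genes were tested. At 2-fold 1 member was lower in RNA (E2F8), 2 in RPF (E2F1 and TFDP1) and 1 in TE (E2F3), and 22 of the G1/S targets were called in RNA instead of 34. With coding length the highest to lowest wild-type RNA level of the members was 50.9-fold instead of 93.6-fold. The median of footprints per RNA in the wild type was −1.37, and −1.55 with totals that leave out MTRNR2L and mitochondrially encoded genes. The other scalings shifted RNA changes by at most 0.019 and RPF changes by at most 0.0024 in log2, while a call needs 0.585. Scaling therefore could not turn the sign of a called change, and 0 turned. Changes near 0 that were not called turned in 3 cases. E2F6 in RNA went from 0.0062 to −0.0066 with the median of ratios. With library totals E2F4 in TE went from 0.0033 to −0.014 and CTBP1 in TE from 0.011 to −0.0057. No paired analysis was possible because each group has 1 library. Depth limits E2F1, E2F2, E2F3, E2F7 and E2F8 most, with 27 to 65 RPF reads over both libraries.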

Other observations

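Pocket proteins silence genes by recruiting corepressors. Of 11 such genes 3 were lower and 0 higher in RNA, beside 17.8% lower and 16.2% higher among all genes, and 5 were lower and 1 higher in RPF, beside 20.1% and 19.0%. CTBP1, a corepressor that binds through adaptor proteins, had 853 and 330 RNA reads (−1.22) and 312 and 135 RPF reads (−1.21), wild type first. The deacetylase gene HDAC1 had 641 and 372 RNA reads (−0.63) and 925 and 499 RPF reads (−0.89), and the histone methyltransferase gene SUV39H1 had −1.18 and −0.68. SIN3B, a scaffold for deacetylases, was the listed gene that was higher, with 102 and 184 RPF reads (0.85).

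Ubiquitin ligase genes that limit E2F proteins were lower in footprints for 3 of 5, CCNF at −1.22, SKP2 at −0.97 and FZR1 at −0.80, and 0 were higher. In RNA 1 of the 5 was lower. Over all genes 20.1% were lower in RPF and 17.8% in RNA, so the RNA count is near that share. FZR1, an activator of the anaphase-promoting complex, had 275 and 234 RNA reads (−0.08) beside 273 and 157 RPF reads. Of 8 apoptosis genes known as E2F1 targets, 3 were lower and 1 higher in RNA, with 5 of 8 values above 0 and a median of 0.13. The RPF median was −0.15, and 3 of 7 measured were called lower and 1 higher there. The shares over all genes were 17.8% lower and 16.2% higher in RNA, and 20.1% and 19.0% in RPF. TP73, which encodes p73, had 102 and 36 RNA reads (−1.34) and 62 and 18 RPF reads (−1.76), and the BH3-only gene BBC3 had −0.99 and −0.96. PMAIP1, which encodes NOXA, had 246 and 240 RNA reads (0.12) and 247 and 120 RPF reads (−1.04). APAF1, the apoptosome scaffold, was higher in RNA at 0.66 with an RPF change of −0.02.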
